A study of Mus musculus with 4 samples.

Results

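T cell cytokine genes were followed here, namely Il2, Il3, Csf2, Ifng, Tnf, Lta, Il17a, Il17f, Il21 and Il23a. These 10 genes were taken by name out of 50686 gene identifiers in each count table, and all 10 were found once. RNA-seq counts came from 4 mouse libraries, 1 for each group: Yap KO stimulated, WT stimulated, Yap KO unstimulated and WT unstimulated cells. The labelled source of every library is spleen and lymph node, and its RNA was prepared from cell culture. The stimulated titles carry the number 24 without a unit. The sources used here give neither the cell type nor the stimulus, the number, sex and age of the animals or the allele behind the label Yap KO.

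Reads in genes ran from 19935523 to 25419974 per library. Yap1, the gene that encodes YAP, had 2 reads in Yap KO stimulated, 3 in WT stimulated, 0 in Yap KO unstimulated and 1 in WT unstimulated cells, so its counts could not check the labels. Markers of T cells and of CD8 T cells were read in all 4 libraries, whereas Cd4 had at most 3 reads in any. Zbtb7b, the other marker listed for CD4 T cells, had 87 and 63 reads in stimulated Yap KO and WT cells. In unstimulated Yap KO and WT cells Zbtb7b had 54 and 9. Since no group has a replicate, every value below is that of 1 library, and intervals cover counting error only. Genotype cannot be told apart from the animal or culture each library came from. In bulk RNA, a different number of producing cells and a different amount of RNA per cell cannot be told apart either.

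T cells that meet antigen secrete small proteins that direct other cells, and their genes are mostly silent until the antigen receptor is engaged. Receptor signals then bring NFAT, AP-1 and NF-kappaB factors to the cytokine promoters, and factors of each T cell lineage decide which cytokines can be made. The messages are short-lived, since many carry AU-rich elements in the 3′ untranslated region (repeats of AUUUA) to which decay proteins of the Zfp36 family bind. IL-2 and IL-21 drive lymphocyte growth, IL-3 and GM-CSF (the product of Csf2) act on myeloid cells and their precursors, and interferon gamma, TNF and lymphotoxin alpha (Lta) act in inflammation and cytotoxic immunity. IL-17A and IL-17F come from type 17 lymphocytes, and the p19 subunit encoded by Il23a forms IL-23 with the product of Il12b.

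The promoters of 9 of the 10 genes were found in the RefSeq table (GRCm38). 4 of them are shown as the 250 bases before the start of transcription because they span the range of the results: Il2, Ifng and Il17f were several-fold higher in stimulated Yap KO cells than in stimulated WT cells, and Tnf was less than 2-fold higher. Capitals mark the NFAT core (GGAAA, or TTTCC where it lies on the other strand) and the TATA box (TATAAA).
Il2, chr3:37125955-37126204, minus strand: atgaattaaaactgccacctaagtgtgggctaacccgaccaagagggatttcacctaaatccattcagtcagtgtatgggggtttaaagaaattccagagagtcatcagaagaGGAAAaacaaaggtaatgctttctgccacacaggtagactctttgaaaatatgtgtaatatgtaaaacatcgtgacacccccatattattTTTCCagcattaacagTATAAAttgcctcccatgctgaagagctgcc
Ifng, chr10:118440796-118441045, plus strand: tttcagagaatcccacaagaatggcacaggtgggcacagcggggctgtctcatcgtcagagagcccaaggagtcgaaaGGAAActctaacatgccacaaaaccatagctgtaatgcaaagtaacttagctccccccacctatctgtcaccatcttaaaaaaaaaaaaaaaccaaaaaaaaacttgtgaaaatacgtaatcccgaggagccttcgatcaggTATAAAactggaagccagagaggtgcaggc
Il17f, chr1:20784271-20784520, minus strand: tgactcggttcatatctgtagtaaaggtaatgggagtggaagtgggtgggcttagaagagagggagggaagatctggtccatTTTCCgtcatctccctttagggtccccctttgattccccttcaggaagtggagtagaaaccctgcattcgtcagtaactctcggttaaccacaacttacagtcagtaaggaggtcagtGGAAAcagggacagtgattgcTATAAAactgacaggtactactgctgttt
Tnf, chr17:35202008-35202257, minus strand: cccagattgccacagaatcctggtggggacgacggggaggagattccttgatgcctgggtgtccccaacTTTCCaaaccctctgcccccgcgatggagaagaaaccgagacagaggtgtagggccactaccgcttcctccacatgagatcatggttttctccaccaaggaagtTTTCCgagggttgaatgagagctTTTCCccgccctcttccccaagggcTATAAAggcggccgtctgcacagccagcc

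The NFAT core was matched on either strand in 8 of the 9 promoter windows, against 55.6% of the 32851 windows of the same length in the table. Il17a was the member window with no match. Tnf had 3 matches, which begin 181, 77 and 54 bases before the start, Il2 had 2, at 137 and 47 bases, and Ifng had 1, at 172 bases. TATAAA was present in 6 of the 9 windows, against 12.4% of all, and began 29 to 31 bases before the start in Il2, Ifng, Tnf, Il17a and Il17f and 167 bases before it in Lta. TGANTCA, a loose form of the AP-1 letters in which N is any base, occurred in Il17a alone, against 6.75% of all windows. The match in Il17a reads TGAATCA. The letters TTCNNNGAA of a STAT site occurred in Ifng and Lta, against 7.02%, and 1 of the 2 matches in Lta overlaps an NFAT match. Both strands were searched for each motif. These matches describe letters in the windows and do not show that a factor binds.

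AU-rich repeats were counted in the 3′ untranslated regions of these genes. Per kilobase, all 10 members held more ATTTA, the DNA form of that repeat, than the median of 1.28 over 11639 tested coding genes. Csf2 held 9 in 317 bases, Tnf 8 in 764, Il2 7 in 581, Il17a 7 in 637 and Ifng 6 in 631. Il23a held 6 in 657 bases, Il21 9 in 2578, Lta 3 in 572, Il17f 3 in 621 and Il3 1 in 101. At least 3 were held by 37.7% of the tested coding genes, and at least 1 by 69.3%. 5 members had 3 or more inside 30 bases, a density that 2.43% of the tested coding genes reached. Those 5 stretches are shown, on the strand of the message and with ATTTA in capitals, because this is the element the decay factors described further on recognise.
Csf2: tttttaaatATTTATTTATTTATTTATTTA
Tnf: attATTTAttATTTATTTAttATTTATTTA
Il2: ctATTTATTTAaatATTTAactttaATTTA
Ifng: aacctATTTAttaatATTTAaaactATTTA
Il17a: ATTTAtatgagctATTTAtgaatctATTTA

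The first question was how the cytokine genes differed between stimulated and unstimulated cells. In the stimulated libraries of both genotypes, Il2, Il3, Csf2, Ifng, Lta, Il17a, Il17f, Il21 and Il23a were higher. Tnf was higher in stimulated Yap KO cells, by less than 2-fold, and lower in stimulated WT cells. Before stimulation only Ifng, Tnf and Lta were read at more than 10 reads in a library, and afterwards every member had at least 30. Together the 10 genes took 1365 CPM (read counts relative to library size, scaled by TMM) in Yap KO stimulated and 314 CPM in WT stimulated cells, against 45.0 CPM in Yap KO unstimulated and 47.6 CPM in WT unstimulated cells. The summed level was thus 30.4-fold higher in stimulated than in unstimulated Yap KO cells (95% counting interval 28.6 to 32.2) and 6.61-fold higher in WT cells (6.19 to 7.05). Without Ifng the sum was 11.7-fold higher in Yap KO (10.9 to 12.5) and 4.18-fold higher in WT (3.89 to 4.49).

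**Figure D1:**
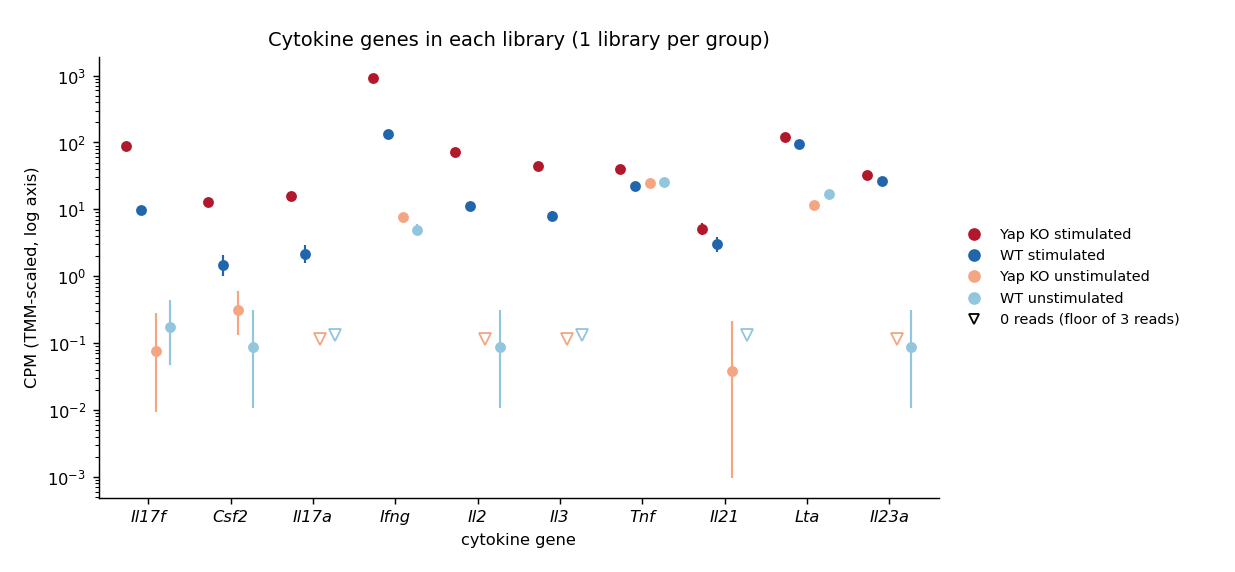
Each point is the level of 1 cytokine gene in 1 library, in TMM-scaled CPM on a log axis, with its exact 95% Poisson interval, and open triangles stand at the floor of 3 reads for a count of 0. Genes run from the highest to the lowest stimulated Yap KO over WT ratio. Yap KO stimulated points lie above WT stimulated points for all 10 genes, with the widest gaps from Il17f to Il3, and only Ifng, Tnf and Lta stand clear of the bottom in the unstimulated libraries.

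Of the 10 members 9 rose with stimulation in the edgeR quasi-likelihood fit with genotype and state as terms, and none fell, where 33.3% of the 15394 tested genes rose and 34.1% fell. By size, the same 9 were at least 2-fold higher with intervals above 1 in each genotype, where 22.7% of tested genes were higher and 25.6% lower in Yap KO and 23.7% higher and 24.5% lower in WT. 7 of these 9, all but Ifng and Lta, had fewer than 10 reads in both unstimulated libraries. They passed the filter on low counts through the stimulated libraries, so that their rise was set by the filter. The p-values given for their rise below carry this limit. The p-values of this fit rest on how alike the change was in the 2 genotypes, not on replicate cultures.

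Ifng, which encodes interferon gamma, took the most reads of the members after stimulation. It had 17983 reads in Yap KO stimulated and 2779 in WT stimulated cells, against 203 in Yap KO unstimulated and 114 in WT unstimulated cells. In CPM these were 932, 136, 7.82 and 4.98 in that order. Its rise was 5.93 ± 0.44 in log2 units (± SE throughout, edgeR adjusted p = 3.20e-06). The ratio of stimulated to unstimulated cells was 119 in Yap KO (95% interval 104 to 138) and 27.3 in WT (22.7 to 33.3). Of its exon bases, 336 also belong to Gm49751, a gene on the same strand, which had 237 and 60 reads in stimulated Yap KO and WT cells and 296 and 103 in unstimulated ones, and reads in the shared bases could not be assigned.

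Lta, the lymphotoxin alpha gene, had 2339 reads in Yap KO stimulated and 1907 in WT stimulated cells, against 305 and 386 in Yap KO and WT unstimulated cells. It rose by 2.91 ± 0.21 on the log2 scale (edgeR adjusted p = 2.92e-06), 10.3-fold in Yap KO (9.15 to 11.7) and 5.54-fold in WT (4.97 to 6.20). Tnf, whose product is released early by activated T cells and macrophages, lies next to it and did not share this change. Tnf had 769 reads in Yap KO stimulated and 451 in WT stimulated cells, against 648 and 579 in Yap KO and WT unstimulated cells. Its log2 state coefficient was 0.25 ± 0.21 (edgeR adjusted p = 0.325). Its stimulated to unstimulated ratio was 1.60 in Yap KO (1.44 to 1.78) and 0.874 in WT (0.771 to 0.990), on either side of no difference.

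The growth factor genes started from almost nothing. Il2 had 1394 reads in Yap KO stimulated and 228 in WT stimulated cells, against 0 and 2 in Yap KO and WT unstimulated cells. It was at least 625-fold higher in stimulated than unstimulated Yap KO cells, with the count of 0 set to a floor of 3 reads per library and the stimulated count taken as read. The exact 95% lower limit, which holds the counting error of both libraries, was 508. Il2 was 128-fold higher in WT, with a wide interval (35.0 to 1062) since only 2 reads stand below it (edgeR adjusted p = 7.03e-07). Of the 31-base words in its transcript 15% occur in other genes too, and reads aligned in more than 1 place were not counted to genes. Il21, the least abundant member per kilobase of exon in both stimulated libraries, had 99 reads in Yap KO stimulated and 61 in WT stimulated cells, against 1 and 0 in unstimulated ones (edgeR adjusted p = 7.73e-06).

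Il3 had 864 reads in Yap KO stimulated and 164 in WT stimulated cells, against 0 in both unstimulated libraries. It was at least 388-fold higher in Yap KO and at least 61.3-fold higher in WT against the same floor, with exact 95% lower limits of 314 and 49.3 (edgeR adjusted p = 8.05e-07). Both myeloid growth factor genes thus appeared with stimulation. Csf2 had 247 reads in Yap KO stimulated and 30 in WT stimulated cells, against 8 and 2 in Yap KO and WT unstimulated cells. Its ratios were 41.5 in Yap KO (20.8 to 97.3) and 16.8 in WT (4.27 to 145), with an adjusted p of 6.29e-06 in edgeR. Gm12223 shares 96 exon bases with Csf2 on the opposite strand and had 135 and 8 reads in stimulated Yap KO and WT cells, and 7 and 3 in unstimulated ones, and since the strand setting of the counting is not given, reads of the 2 genes could not be told apart there.

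Among the type 17 genes, Il17f had 1699 reads in Yap KO stimulated and 199 in WT stimulated cells, against 2 and 4 in Yap KO and WT unstimulated cells (edgeR adjusted p = 8.11e-07). Il17a had 310 reads in Yap KO stimulated and 44 in WT stimulated cells, against 0 in both unstimulated libraries. It was at least 139-fold higher in stimulated than unstimulated Yap KO cells and at least 16.5-fold higher in WT cells against the floor, with exact 95% lower limits of 112 and 12.8 (edgeR adjusted p = 9.36e-06). Il23a had 631 reads in Yap KO stimulated and 549 in WT stimulated cells, against 0 and 2 in Yap KO and WT unstimulated cells (edgeR adjusted p = 1.25e-07). Il12b, whose product pairs with that of Il23a in IL-23, had 21 and 5 reads in stimulated Yap KO and WT cells and 0 and 2 in unstimulated ones, too few to pass the filter.

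**Figure D2:**
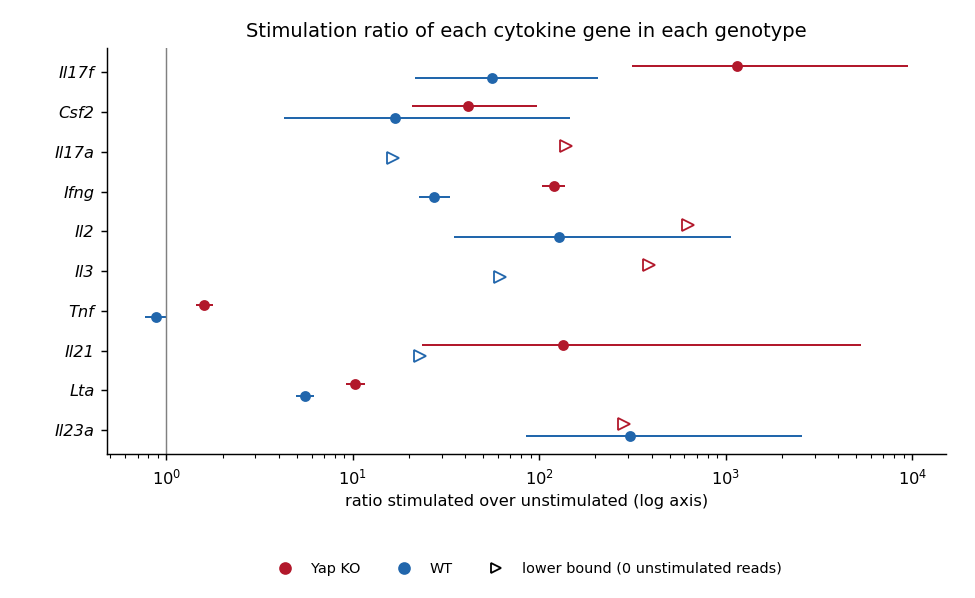
For each cytokine gene, the ratio of the stimulated to the unstimulated library within Yap KO and within WT is plotted on a log axis with its exact 95% counting interval, and open arrowheads are lower bounds where the unstimulated library had 0 reads. All genes except Tnf lie to the right of 1 in both genotypes, and Tnf lies at 1.60 in Yap KO and 0.874 in WT.

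Levels of different genes were compared per kilobase of exon (RPKM, from the TMM-scaled counts and the exon bases of GENCODE M21). In Yap KO stimulated cells Ifng led at 720 RPKM, followed by Lta at 87.7, Il3 at 71.2, Il2 at 63.2, Il17f at 43.6, Tnf at 24.3, Csf2 at 16, Il23a at 14.6, Il17a at 13.7 and Il21 at 0.976 RPKM. The counting intervals of Il3 and Il2 overlapped, as did those of Csf2 and Il23a and of Il23a and Il17a. In WT stimulated cells Ifng led at 105 RPKM and Lta followed at 67.6, and then came Tnf at 13.5, Il3 at 12.8, Il23a at 12 and Il2 at 9.77 RPKM, with each of these overlapping the next. Il17f stood at 4.82, Il17a and Csf2 both at 1.84, with overlapping intervals, and Il21 at 0.568 RPKM. Tnf held rank 6 of 10 in stimulated Yap KO cells and rank 3 in stimulated WT cells. In the unstimulated libraries Tnf led, at 15.2 RPKM in Yap KO and 15.4 RPKM in WT cells.

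The second question was the difference between Yap KO and WT cells. After stimulation the members divided. Il17f, Csf2, Il17a, Ifng, Il2 and Il3 were 5.57- to 9.03-fold higher in Yap KO than in WT cells, while Tnf, Il21, Lta and Il23a were 1.22- to 1.80-fold higher. The intervals of all 10 ratios excluded 1, but so did those of deeply read genes with ratios close to 1, such as Irf4 at 0.920 (0.890 to 0.951). The share of all tested genes with such an interval was not counted. With 1 library for each group there is no test of these ratios, and a difference of this kind between 2 cell sources need not come from the genotype.

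Il17f had the highest ratio, 9.03 (95% counting interval 7.80 to 10.5), from 88.1 CPM in Yap KO and 9.75 CPM in WT stimulated cells. Csf2 followed at 8.71 (5.95 to 13.2), from 12.8 and 1.47 CPM in Yap KO and WT. Il17a stood at 7.45 (5.42 to 10.5), from 16.1 and 2.16 CPM in Yap KO and WT. Csf2 and Il17a rest on 30 and 44 reads in WT stimulated cells, and their intervals are the widest of the 3.

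Ifng had a ratio of 6.85 with a narrow interval (6.58 to 7.13), as its counts were the deepest. Il2 had 6.47 (5.62 to 7.47), from 72.3 and 11.2 CPM in stimulated Yap KO and WT cells. Il3 had 5.57 (4.71 to 6.63), from 44.8 and 8.04 CPM in Yap KO and WT. These 6 genes were at least 2-fold higher with intervals above 1, a size that 3.24% of the tested genes reached in that direction, and none of the 10 members was 2-fold lower, which 4.67% of tested genes were.

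Tnf had a ratio of 1.80 (1.60 to 2.03), from 39.9 and 22.1 CPM in stimulated Yap KO and WT cells. Il21 had 1.72 (1.24 to 2.40), from 5.13 and 2.99 CPM. Lta had 1.30 (1.22 to 1.38), from 121 and 93.4 CPM, and Il23a had 1.22 (1.08 to 1.37), from 32.7 and 26.9 CPM, each with Yap KO first. Abundance did not separate these from the 6 genes above, since Lta was the second most abundant member per length and Il21 the least.

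**Figure D3:**
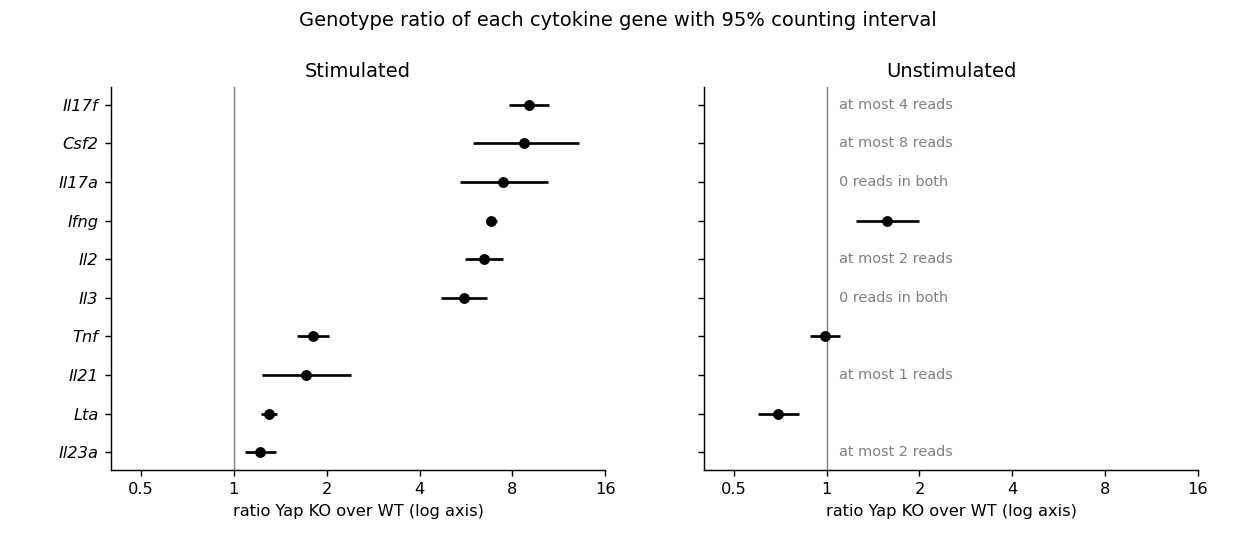
The ratio of Yap KO to WT is plotted for each cytokine gene on a log axis with its exact 95% counting interval, in stimulated cells on the left and unstimulated cells on the right, where grey text replaces a ratio when a library had 3 reads or fewer. In stimulated cells 6 genes lie between 5.57 and 9.03 and the others between 1.22 and 1.80, and in unstimulated cells Ifng lies at 1.57, Tnf at 0.987 and Lta at 0.697.

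The gap between the 2 sets was the widest step in the order. Il3, the lowest of the higher genes, had a ratio 3.09 times that of Tnf (95% counting interval 2.52 to 3.79), the highest of the others. Among the 6 higher genes, the ratio for Il17f was 1.32 times that for Ifng (1.13 to 1.54), while Il17f did not differ from Csf2 (1.04, 0.691 to 1.56) or Il17a (1.21, 0.855 to 1.72) beyond counting error. Among the other four, the ratio for Tnf was 1.39 times that for Lta (1.22 to 1.58). In all, 45 pairs were compared, and these intervals are not adjusted for their number.

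Of the 11199 tested genes with at least 100 reads in the stimulated libraries together, 20 had a Yap KO over WT ratio of 5 or more and 18 a ratio of 0.2 or less. The middle 95% of them had log2 ratios from -0.89 to 0.76. Of all 15394 tested genes, whatever their depth, 0.734% had a ratio of 5 or more with an interval that excluded 1. The 20 included the 6 cytokine genes at ranks 5 (Il17f), 6 (Csf2), 8 (Il17a), 11 (Ifng), 12 (Il2) and 16 (Il3). Tnf stood at rank 214, Il21 at 259, Lta at 1156 and Il23a at 1746 of the same 11199. The members were picked knowing earlier results of these data, so these ranks are a description. Those named of the other 14 genes were picked after their values were seen. All of the 14 but Ccl9 and Lum already had more reads in unstimulated Yap KO than in unstimulated WT cells. Ccl9 had 6 and 7 reads there, and Lum had 0 in both. Map7, at rank 1, had 687 and 9 reads in unstimulated Yap KO and WT cells. Cxcr3, a chemokine receptor of effector T cells, had 4654 and 991 reads in unstimulated Yap KO and WT cells, and Klrc1, a killer cell lectin-like receptor, had 1713 and 276.

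**Figure D4:**
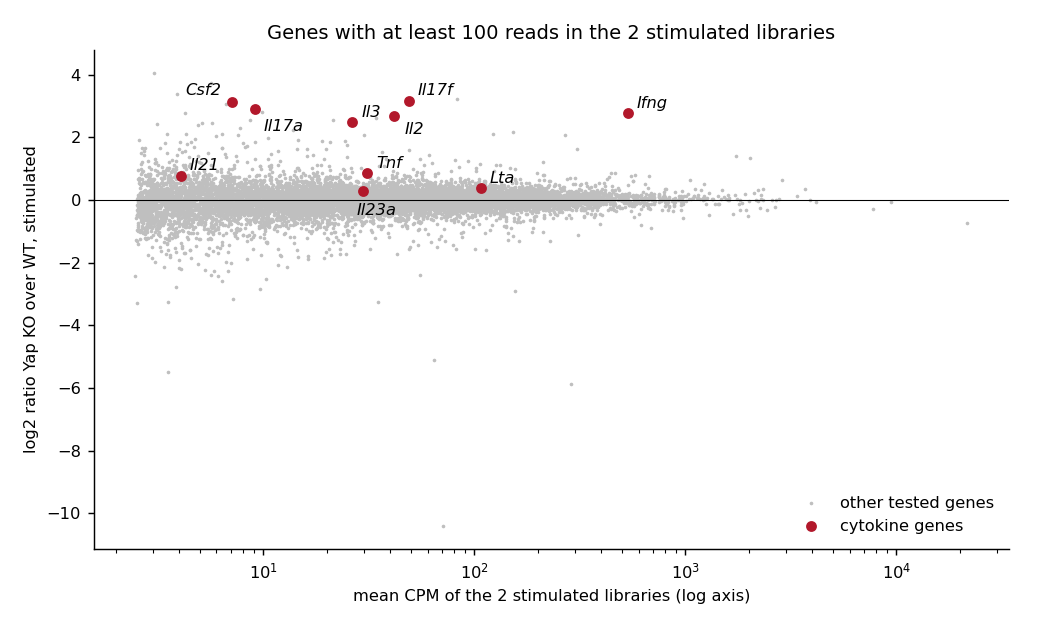
Every grey point is a tested gene with at least 100 reads in the 2 stimulated libraries together and at least 1 in each, with its mean CPM on a log axis across and its log2 ratio of stimulated Yap KO to stimulated WT cells upwards, and red points are the cytokine genes. Ifng, Il17f, Csf2, Il17a, Il2 and Il3 lie between 2.48 and 3.18, well above the main band, while Tnf, Il21, Lta and Il23a lie between 0.28 and 0.85.

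In unstimulated cells the genotypes could be compared for few members. Ifng had 203 reads in Yap KO and 114 in WT cells, a ratio of 1.57 (1.24 to 1.99). Tnf had a ratio of 0.987 (0.881 to 1.11), and Lta was lower in Yap KO, at 0.697 (0.598 to 0.812). Csf2, with 8 and 2 reads in Yap KO and WT, had a ratio of 3.53 with an interval from 0.704 to 34.1. No member was 2-fold higher or lower by the size rule in this state, where 4.37% of tested genes were higher and 3.53% lower. The summed level of all 10 was 0.945 times that of WT (0.870 to 1.03) in unstimulated Yap KO cells and 4.35 times that of WT (4.23 to 4.47) in stimulated Yap KO cells. Without Ifng, which made up 68.3% of member reads in Yap KO stimulated and 43.3% in WT stimulated cells, the stimulated ratio of the sum was 2.43 (2.34 to 2.53).

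For the 3 members with more than 3 reads in every library, the response to stimulation could be compared as a ratio of ratios. The stimulated to unstimulated ratio was 4.36 times as large in Yap KO as in WT for Ifng (95% counting interval 3.45 to 5.50), 1.86 times for Lta (1.58 to 2.19) and 1.83 times for Tnf (1.55 to 2.15). These intervals hold counting error of 4 single libraries and no replicate error.

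In the additive edgeR fit, Il2, Il3, Csf2, Il17a and Il17f were called higher in Yap KO, 5 of the 10, where 0.838% of all tested genes were, and none was called lower, where 0.559% were. The log2 coefficients of the 5 ran from 2.47 for Il3 (edgeR adjusted p = 0.00811) to 3.03 for Il17f (edgeR adjusted p = 0.00894). Ifng had 1.95 with an edgeR adjusted p of 0.0546, and Lta had -0.03 (edgeR adjusted p = 0.976). All 5 had at most 8 reads in either unstimulated library, so these calls rest on the single stimulated pair of libraries and add nothing independent to the ratios above. They set 2 cell sources against each other with 1 residual degree of freedom, and their p-values overstate the evidence for animals. With DESeq2, and likewise with no filter on low counts, Csf2 alone of the 5 was still called.

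The cytokine genes lie in clusters, and 8 of the 10 have another member as the next coding gene on one side (GRCm38). Il17a and Il17f lie 42649 bases apart on chromosome 1, and their stimulated Yap KO over WT ratios, 7.45 and 9.03, did not differ beyond counting error. Mcm3, a replication gene on the far side of Il17f, had 15090 and 17219 reads in stimulated Yap KO and WT cells. Il3 and Csf2 lie 15635 bases apart on chromosome 11, both in the higher set, with Csf2 over Il3 at 1.56 (1.03 to 2.36). Il2 and Il21, 96799 bases apart on chromosome 3, fell into different sets, with a ratio for Il2 3.77 times that for Il21 (2.66 to 5.34).

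On chromosome 17, Lta and Tnf are separated by 1157 bases, and Ltb, which encodes the membrane partner of lymphotoxin alpha, lies 3060 bases beyond Tnf. The 3 genes changed in different ways. Lta rose with stimulation, Tnf did not pass the test, and Ltb fell, by 4.13 ± 0.22 on the log2 scale (edgeR adjusted p = 4.93e-07). Ltb stood at 22.9 CPM in Yap KO stimulated and 37.1 CPM in WT stimulated cells, against 558 and 471 CPM in Yap KO and WT unstimulated cells. Its stimulated Yap KO over WT ratio was 0.616 (0.547 to 0.694), in the opposite direction to Tnf and Lta. Ifng and Il23a, both on chromosome 10, have no member near them.

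Among 35 other interleukin, colony-stimulating factor and TNF family ligand genes 19 passed the filter, 5 of them through the stimulated libraries alone. With stimulation 12 of the 19 rose and 3 fell, against 33.3% and 34.1% of all tested genes. The largest rises were those of Il1a, Tnfsf4 (OX40 ligand) and Tnfsf11 (RANK ligand), the last by 5.88 ± 0.20 on the log2 scale (edgeR adjusted p = 4.38e-08). The genes that fell were Ltb, Tnfsf10 (TRAIL) and Il16. Il4, Il5, Il9 and Il13, cytokines of type 2 helper cells, had at most 3 reads in any library. By size in stimulated cells, 5 of the 19 were at least 2-fold higher in Yap KO and 1 lower. Over all tested genes these shares were 3.24% and 4.67%. The median log2 ratio of the list was 0.09, against 0.00 over all tested genes and 2.57 over the 10 members. Tnfsf4 was 3.71-fold higher (3.18 to 4.35), Tnfsf11 2.43-fold (2.26 to 2.63) and Il1a 4.87-fold (2.76 to 9.16). Fasl, the death ligand of cytotoxic cells and outside the naming rule, was named after its values were seen and had 2.51 (2.28 to 2.75).

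Of 17 genes for receptors of the member cytokines 16 were tested, and 2 rose and 7 fell with stimulation, against 33.3% and 34.1% of all tested genes. Il2ra, the chain that gives the IL-2 receptor its high affinity, rose by 6.72 ± 0.27 on the log2 scale (edgeR adjusted p = 1.10e-07) and stood at 902 CPM in Yap KO stimulated and 699 CPM in WT stimulated cells, against 12.2 and 4.28 CPM in Yap KO and WT unstimulated cells. Il2rg, the common gamma chain, fell by 1.61 ± 0.12 (edgeR adjusted p = 3.48e-06). Il2rb did not pass the test (edgeR adjusted p = 0.452), and its level in unstimulated cells was 838 CPM in Yap KO and 254 CPM in WT. Il12rb1, shared by the receptors of IL-12 and IL-23, rose by 1.61 ± 0.26 (edgeR adjusted p = 0.000522), and Ifngr1, an interferon gamma receptor chain, fell by 1.95 ± 0.17 (edgeR adjusted p = 9.48e-06). Csf2rb, of the IL-3 and GM-CSF receptors, and Il17rc, of the IL-17 receptor, also fell, to 4 reads or fewer in each stimulated library.

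Between genotypes, 2 of the 16 receptor genes were at least 2-fold higher in stimulated Yap KO cells by the size rule, where 3.24% of tested genes were, and 6 were in unstimulated ones, where 4.37% were. The median log2 ratios of the list were 0.18 and 0.86. Il23r, the specific chain of the IL-23 receptor, was at 7.10 and 2.70 CPM in stimulated Yap KO and WT cells, a ratio of 2.64 (1.91 to 3.67), and at 6.82 and 1.31 CPM in unstimulated ones, a ratio of 5.20 (3.52 to 7.94). It was the one receptor gene called in the additive fit (edgeR adjusted p = 0.0322), where 0.838% of tested genes were called higher. Il2ra had a stimulated ratio of 1.29 (1.26 to 1.32), far below that of its ligand gene Il2.

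Transcription factors that act on cytokine genes were all measured. Of the 34 tested 13 rose and 16 fell with stimulation, shares not far from the 33.3% and 34.1% of all tested genes. Irf4 rose by 6.24 ± 0.21, Bhlhe40, which promotes GM-CSF and interferon gamma production in mouse T cells, by 4.82 ± 0.16 (edgeR adjusted p = 4.29e-08 each), and Fosl1 by 4.35 ± 0.42 (edgeR adjusted p = 1.63e-05). Maf, Fos and Jun fell most, as Fos fell by 4.54 ± 0.27 and Jun fell by 3.31 ± 0.15 (edgeR adjusted p = 8.53e-07 and 2.05e-07). Fosl1, Jun, Maf and Bhlhe40 have exons opposite those of another gene. None of the 34 was called between genotypes in the additive fit, where 0.838% of tested genes were called higher and 0.559% lower. By size in stimulated cells 1 was at least 2-fold higher in Yap KO and none lower, against 3.24% and 4.67% of all tested genes. Bhlhe40 had a stimulated ratio of 1.03 (0.999 to 1.06) and Irf4 of 0.920 (0.890 to 0.951).

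Tbx21, which encodes T-bet, a lineage factor of interferon gamma producing cells, was named after its values were seen. It was at 98.3 and 17.2 CPM in unstimulated Yap KO and WT cells, a ratio of 5.71 (5.13 to 6.36), and at 134 and 132 CPM in stimulated ones, a ratio of 1.02 (0.964 to 1.07).

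Of 13 genes for factors that act on cytokine messages, 4 rose and 8 fell with stimulation, against 33.3% and 34.1% of all tested genes. The 3 listed genes of the Zfp36 family, whose decay proteins bind AUUUA repeats, all fell. Zfp36, which encodes tristetraprolin, fell by 3.36 ± 0.17 on the log2 scale (edgeR adjusted p = 3.54e-07), Zfp36l2 by 1.94 ± 0.13 and Zfp36l1 by 1.64 ± 0.14. Zfp36 and Zfp36l1 have exons opposite another gene. The genes that rose most were Zc3h12d, a relative of the cytokine ribonuclease gene Zc3h12a, Elavl1, which encodes a stabilising protein, and Khsrp, which encodes another decay protein. None of the 13 was 2-fold apart between stimulated Yap KO and WT cells, against 3.24% of all tested genes higher and 4.67% lower. The median log2 ratio of the list was 0.12 there. Zfp36 had a ratio of 0.947 (0.831 to 1.08) in stimulated cells and of 0.629 (0.607 to 0.653) in unstimulated ones.

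Of 10 feedback inhibitors and targets of cytokine signalling, 4 rose and 3 fell with stimulation, close to the 33.3% and 34.1% of all tested genes. Cish and Socs2, targets of STAT5 downstream of IL-2, rose by 4.01 ± 0.22 and 2.87 ± 0.39 (edgeR adjusted p = 5.67e-07 and 0.000149), and Socs3 fell by 2.07 ± 0.19 (edgeR adjusted p = 1.41e-05). Pim2 rose too, and Tnfaip3 and Nfkbiz fell. Cish has exons opposite another gene. None of the 10 was 2-fold apart between the genotypes after stimulation, against 3.24% of all tested genes higher and 4.67% lower in Yap KO. Cish was at 210 and 262 CPM in stimulated Yap KO and WT cells, a ratio of 0.801 (0.769 to 0.835), beside the ratio of 6.47 for Il2.

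Markers of other cells were read beside the cytokines. T cell markers, 9 genes, summed to 2400 and 2550 CPM in stimulated Yap KO and WT cells and 5422 and 5164 CPM in unstimulated ones, with none at 0. Cd8a and Cd8b1 summed to 521 and 605 CPM in stimulated Yap KO and WT cells. Markers of gamma-delta and type 17 T cells, which are known sources of IL-17, moved with the genotype. All 10 of them were higher in Yap KO in each state, summing to 59.2 and 30.7 CPM in stimulated Yap KO and WT cells, a ratio of 1.93 (1.75 to 2.13), and to 590 and 317 CPM in unstimulated ones, a ratio of 1.86 (1.81 to 1.92). The list includes Il23r, described above. In stimulated Yap KO and WT cells Tcrg-C1 had 1 and 0 reads and Cd163l1 had 7 and 3, the latter with an interval from 0.564 to 14.8. Trdc held 647 of the 1141 reads of the list in Yap KO stimulated and 462 of the 627 in WT stimulated cells. Over all tested genes the median log2 ratio of Yap KO to WT was 0.00 in stimulated and 0.03 in unstimulated cells. The part of these cells in the ratios of Il17a, Il17f and the other members was not tested.

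Markers of other cell types were also read. NK cell markers, 7 genes, summed to 2.07 and 1.91 CPM in stimulated Yap KO and WT cells, with 1 and 2 of them at 0, and to 43.7 and 22.4 CPM in unstimulated ones. Mast cell and basophil markers summed to 0.518 and 1.13 CPM in stimulated Yap KO and WT cells, and Fcer1a was at 0 in every library. Dendritic cell markers summed to 9.07 and 2.70 CPM in stimulated Yap KO and WT cells, 2 of 5 being higher in Yap KO. Itgax gave 7.41 CPM of the sum in Yap KO and 1.08 CPM of that in WT. In unstimulated Yap KO and WT cells Itgax stood at 23.4 and 6.29 CPM. Monocyte and macrophage markers summed to 24.2 and 18.1 CPM and B cell markers to 20.5 and 10.2 CPM in stimulated Yap KO and WT cells. All 5 B cell genes had the higher CPM in Yap KO, but for 2 of them the difference lay within counting error. Pax5 had 5 reads in each of these libraries, and Cd79b had a ratio of 1.27 (0.943 to 1.71). Neutrophil markers summed to 0.311 and 0.0490 CPM. The part of these cells in the members' values was not tested.

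The genes nearest in pattern were sought for Il2, Il17a and Tnf by the distance between centred log2 CPM over the 4 libraries. Among genes that are no members, nearest to Il2 were Serpine2, Ccl9 and Idi2, at distances of 0.552, 0.930 and 1.06, and the members Il3 and Il17f lay at 0.713 and 0.798. Serpine2, a protease inhibitor gene, had 4835 and 1126 reads in stimulated Yap KO and WT cells and 9 and 11 in unstimulated ones. Among such genes, nearest to Il17a were Lum, Rpl10a-ps2 and Gm9745, at distances of 0.510, 0.756 and 0.797, and the member Ifng lay at 0.518. Lum, which encodes a proteoglycan, had 230 and 29 reads in stimulated Yap KO and WT cells and none in unstimulated ones. The log2 CPM used a prior count of 2. Il17a, Lum, Rpl10a-ps2 and Gm9745 had no unstimulated reads, so the prior set their unstimulated values, and the distance of Il17a to Ifng rests on it too. Nearest to Tnf were 1700007J10Rik, Syn1 and Mir22hg, all within 0.0981, while no other member lay closer to it than Lta, at 2.72. Syn1 had few reads, 22 and 12 in stimulated Yap KO and WT cells and 18 and 15 in unstimulated ones.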

How the data were processed

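RNA-seq was measured in 4 mouse libraries, 1 for each genotype and state. The authors deposited raw read counts per Ensembl gene identifier for each library, and the submitters' processing notes name the build mm9. The sources used here give no aligner, annotation release, strand setting or counting mode. The 5 summary entries of each table (reads in no gene made up 48.3 to 52.5% of entries, reads aligned in more than 1 place 3.48 to 4.31%) stayed out of library sizes and tests. Symbols were found for 50376 of 50686 identifiers. Positions, exon lengths and overlaps come from GENCODE M21 on GRCm38, whose build differs from mm9, and promoters from RefSeq on GRCm38.

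Genes were kept by filterByExpr by state (minimum count 10), which left 15394, and scaled by TMM. The 4 libraries entered 1 edgeR 4.0.16 quasi-likelihood fit, additive in genotype and in state, and p-values were adjusted by Benjamini-Hochberg over every tested gene and called at 0.05. The code was tested on simulated counts. Within 1 state or 1 genotype there is no test: ratios of TMM-scaled counts carry exact 95% conditional binomial (Clopper-Pearson) intervals, single counts exact Poisson intervals, and ratios of ratios a normal interval on the log scale. The size rule asks for a ratio of at least 2 with an interval that excludes 1. The floor for a count of 0 was 3 reads per library. No molecular identifiers are recorded, so reads may repeat a molecule. Alternatives were RLE scaling, total counts, no filter, a mean of at least 50 counts, DESeq2 1.42.0, state as the only term and, added after seeing the data, edgeR's earlier quasi-likelihood method.

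The members, gene lists and markers were chosen with earlier results of these data known. All members are named. Of each other list the text names at most 3 called genes in each direction with the largest state coefficient, the receptor and partner genes of Il2, Il23a and Lta, and the 3 genes nearest in pattern to Il2, Il17a and Tnf. A gene of the lists is not reported here.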

Additional observations from a re-analysis of the deposited data

Results flagged for a closer look

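Tnf and Lta were singled out because 1 of their contrasts pointed in opposite directions in the compared groups, each with a counting interval that excluded no difference. For Tnf, the log2 ratio of stimulated to unstimulated cells was 0.68 in Yap KO and -0.19 in WT. For Lta, the log2 ratio of Yap KO to WT was 0.38 in stimulated and -0.52 in unstimulated cells. Each value compares 1 library with 1 library, and neither difference was tested.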

How the results depend on the processing

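The stimulation calls among the members were the same 9 genes under RLE scaling, total counts, no filter, DESeq2, state as the only term and the earlier quasi-likelihood method. With a mean of at least 50 counts, Il21 was not tested and the other eight were called. For the 7 members that passed the main filter through the stimulated libraries, the rise was set in advance, so this agreement is no independent support for it. Genotype calls were less stable. Over all genes they numbered 129 higher and 86 lower, against 23 and 18 with no filter and 56 lower with total counts. With no filter, Il2, Il3, Il17a and Il17f lost their calls while their log2 coefficients stayed at 2.65, 2.48, 2.90 and 3.08. With DESeq2 the same genes lost their calls with smaller coefficients, -0.0671 for Il2, 1.26 for Il3, 1.47 for Il17a and 1.25 for Il17f, and that of Il23a, which was not called, was -0.83 against 0.24. Separately, with a mean of at least 50 counts Ifng gained one (edgeR adjusted p = 0.0247, over a range from there to 0.303 across the edgeR settings). The cause was not tested. Ratios of the members kept their direction under RLE and total-count scaling. No paired analysis was possible because every library carries the replicate number 1, which leaves no number to block on, although genotype, a term of the fit, already sets the states against each other within each cell source. Leaving out a library leaves the additive fit with no residual degree of freedom and was not run. Depth limits the unstimulated values: 7 members had fewer than 10 reads in both of those libraries.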
